A study of Mus musculus with 12 samples.

Results

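The FGF receptors Fgfr1 to Fgfr4, the receptor-like protein Fgfrl1, the carrier Fgfbp1 and the heparan sulfate proteoglycans Gpc1, Sdc1, Sdc2 and Sdc4 were followed by gene symbol in RNA-seq of the mouse breast tumour line 4T1. These are 10 of the 31017 gene symbols counted, and 9 of them passed the filter on low counts; Fgfr4 did not. Each of 4 groups had 3 libraries: cells nucleofected with Cas9 and an ETV4 guide RNA and given FGF (knockout with FGF), cells with Cas9 and a control guide given FGF (control with FGF), and the same knockout and control cells without FGF. All were embedded in collagen I gels for 3D culture, in medium with 2% serum; the protocol names collagen at 1.2 and at 2.4 mg/ml and does not assign either to a library. The FGF cultures received 25 ng/ml of FGF10 together with 40 ng/ml of FGF2, first overnight in 10% serum and then for 4 days in 2% serum. For the cultures without FGF, neither the days in culture nor a step in 10% serum is stated. A difference in either cannot be told apart from FGF addition. Whether the edited cells were pooled or cloned is not stated, and all knockout library names carry the same further tag, so a clone and the genotype cannot be told apart. Nothing in the labels states that replicates came from separate cultures; p-values therefore reflect variation among these libraries that may be technical.

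FGFs signal by bringing receptor tyrosine kinases of the FGFR family together on the cell surface, and the paracrine FGFs need heparan sulfate chains to do so. The chains are carried by glypicans such as Gpc1 and by syndecans such as Sdc1, Sdc2 and Sdc4, while Fgfbp1 is a secreted protein that releases FGFs from the matrix. FGF10 binds mainly the epithelial IIIb form of FGFR2, and FGF2 binds mainly the mesenchymal IIIc forms of FGFR1 and FGFR2. In mammary epithelium FGFR2 is known as the receptor through which stromal FGF10 drives bud and branch formation. ETV4 is an ETS factor of the PEA3 family, a known target of FGF signalling, and the study compared its loss with and without added FGF.

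Libraries held 18229429 to 23193244 counts. The knockout guide was checked on Etv4 itself, which averaged 116 ± 3.3 CPM in knockout and 165 ± 9.44 CPM in control libraries with FGF, and 130 ± 24.8 CPM in knockout and 166 ± 3.18 CPM in control libraries without FGF (SD, n = 3 each). CPM is the usual depth-scaled count, taken over TMM-scaled library totals. The Etv4 transcript was lower in knockout by log2 -0.51 with FGF and -0.35 without (edgeR adjusted p = 0.00204 and 0.0173). Without FGF, knockout replicate 2 had 159 CPM of Etv4, against 116 CPM in replicates 1 and 3. Protein was not measured. Summed mammary epithelial markers lay between 4630 and 7000 CPM over the 12 libraries, although Krt5 and Elf5 of that list had no count. Fibroblast markers summed to 8.03 to 16 CPM, leukocyte markers to 5.73 to 11.5 CPM and endothelial markers to 0.404 to 1.82 CPM, with Pdgfrb, Dcn, Lum, Thy1, Adgre1, Cd3e, Kdr and Emcn at 0 in every library. With FGF the epithelial sum was lower in knockout than in control libraries, 4630 to 4760 against 5310 to 5940 CPM. The fibroblast sum was higher, 12.6 to 16 against 8.03 to 11.5 CPM, as was the leukocyte sum, 9.07 to 9.99 against 6.82 to 7.81 CPM. Most of the fibroblast sum was Pdgfra, at 12 to 15.7 CPM in knockout and 7.83 to 11.1 CPM in control with FGF. Most of the leukocyte sum was Cd68, at 8.33 to 9.57 and 6.06 to 7.38 CPM. The epithelial markers went both ways with FGF: of 9 tested, 2 were higher and 3 lower in knockout (edgeR adjusted p under 0.05). Krt8 averaged 1310 CPM in knockout and 1770 CPM in control with FGF, and Krt18 1110 and 1340 CPM. Krt19 averaged 91.8 and 48.8 CPM, and Cldn4 442 and 351 CPM. The part of these sums in the differences below was not tested. Replicate 2 of the knockout without FGF stood apart from its group: its chi-square per degree of freedom against replicates 1 and 3 was 74.3 and 73.1, against 3.49 between those replicates. Replicate 2 of the control with FGF differed less, at 11.6 and 9.37 against 4.04. Both had lower values for long transcripts. The Spearman correlation across 11959 genes between exon length and a library's deviation from the rest of its group was -0.47 in the first library and -0.38 in the second, and with GC content 0.5 and 0.22. For the members, results that rest on these libraries are given with all 12 libraries and with the other 10. Fold changes of listed genes are not given over the 10 libraries. Some listed genes were also low in knockout replicate 2 without FGF. There Cd44 had 839 CPM against 1360 and 1320 CPM in replicates 1 and 3, Cblb 15.3 against 24.3 and 21.5, and Tia1 26.7 against 47.4 and 46.3.

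Start-site sequences were available for 7 of the 10 members, 8 starts in all, each 250 bases before to 50 bases after the start (RefSeq, GRCm38.p6). Those of Fgfr2, the receptor with the highest level, and of 3 members that differed in knockout cells are shown because the gene targeted by the guide encodes an ETS protein. The windows of Fgfr3 and Fgfrl1, which also differed in knockout cells, are not shown. Capitals mark the letters AGGAAG or CCGGAA, ETS-type motifs read on either strand (reverse complements CTTCCT and TTCCGG), which can overlap each other. The windows are chr7:130266759-130267058 (minus strand) for Fgfr2, chr5:43981750-43982049 (minus) for Fgfbp1, chr12:8771146-8771445 (plus) for Sdc1 and chr2:164443139-164443438 (minus) for Sdc4.
Fgfr2: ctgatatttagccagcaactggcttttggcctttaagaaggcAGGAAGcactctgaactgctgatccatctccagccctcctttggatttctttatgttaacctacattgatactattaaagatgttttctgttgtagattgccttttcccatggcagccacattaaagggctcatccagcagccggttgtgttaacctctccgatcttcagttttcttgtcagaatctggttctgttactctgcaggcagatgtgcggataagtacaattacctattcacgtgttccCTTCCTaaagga
Fgfbp1: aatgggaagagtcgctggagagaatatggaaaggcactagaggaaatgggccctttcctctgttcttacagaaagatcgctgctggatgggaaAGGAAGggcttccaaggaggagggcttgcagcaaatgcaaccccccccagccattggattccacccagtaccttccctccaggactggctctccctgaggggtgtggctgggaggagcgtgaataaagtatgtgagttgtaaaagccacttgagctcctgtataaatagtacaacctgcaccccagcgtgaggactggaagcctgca
Sdc1: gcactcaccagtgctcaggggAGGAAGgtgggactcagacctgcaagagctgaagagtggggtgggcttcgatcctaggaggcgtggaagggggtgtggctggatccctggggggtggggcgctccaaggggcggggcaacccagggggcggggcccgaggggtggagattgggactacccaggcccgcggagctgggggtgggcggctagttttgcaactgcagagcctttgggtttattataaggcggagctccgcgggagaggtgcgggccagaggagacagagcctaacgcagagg
Sdc4: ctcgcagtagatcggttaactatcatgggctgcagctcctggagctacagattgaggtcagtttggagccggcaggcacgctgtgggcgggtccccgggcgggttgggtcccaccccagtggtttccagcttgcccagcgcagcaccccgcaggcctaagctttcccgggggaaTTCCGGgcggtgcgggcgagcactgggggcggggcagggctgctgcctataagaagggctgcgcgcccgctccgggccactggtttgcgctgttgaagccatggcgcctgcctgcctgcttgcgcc
The Fgfr2 window holds AGGAAG 2 times, those of Fgfbp1 and Sdc1 hold it 1 time and that of Sdc4 holds CCGGAA 1 time, each counted on both strands. Of the 7 members with a window, 6 hold either motif and Fgfr3 holds none. Among 32851 start-site windows of the same length, 35.4% hold AGGAAG, 14.9% hold CCGGAA and 45.2% hold either, so such matches are common and are given as a description only.

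Fgfr2 was the most abundant of the 4 signalling receptors in every library. Per kilobase of exon, its level was 9.1 ± 0.302 CPM in knockout and 9.46 ± 2.87 CPM in control libraries with FGF, and 8.09 ± 4.73 CPM in knockout and 13 ± 0.554 CPM in control libraries without FGF (SD, n = 3 each). Fgfr3 was next, at 1.12 ± 0.0491 and 1.46 ± 0.0547 CPM per kilobase in knockout and control with FGF, and at 1.06 ± 0.145 and 1.48 ± 0.152 without FGF. Fgfr1 followed at 0.109 ± 0.0348 and 0.972 ± 0.0776 with FGF, and 0.159 ± 0.00618 and 1.24 ± 0.182 without FGF, again knockout before control. In control libraries without FGF the ranges of Fgfr3 and Fgfr1 overlapped; in the other groups no receptors next to each other in this order did. The order of mean receptor levels was the same in the 4 groups, and Fgfr1 lay much farther below Fgfr2 in knockout cells. The ratio of their mean levels per length was 83.1 in knockout and 9.74 in control cells with FGF, and 50.9 in knockout and 10.5 in control cells without FGF. It was 11.1 in control cells with FGF without replicate 2, and 67.8 in knockout cells without FGF without replicate 2.

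**Figure D1:**
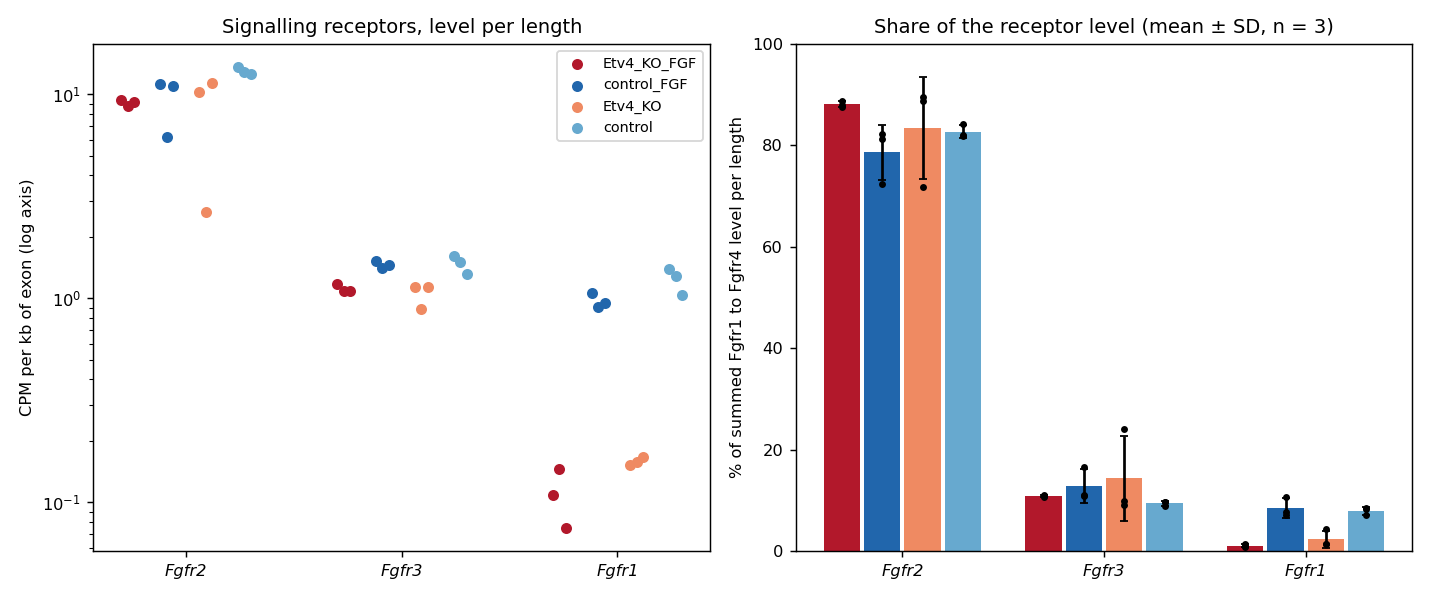
Left, level per kilobase of exon (TMM-scaled CPM per kb, log axis) of Fgfr2, Fgfr3 and Fgfr1 in each library; right, each receptor's share of the summed Fgfr1 to Fgfr4 level (bars mean, error bars SD, n = 3, dots libraries). Fgfr2 takes 71.8% to 89.6% of the receptor level in all 12 libraries. In the left panel the distance between knockout and control is larger for Fgfr1 than for Fgfr3, whose libraries do not overlap either. In the right panel the Fgfr3 shares of knockout and control libraries overlap in both conditions.

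Expressed as a share of the summed level of Fgfr1 to Fgfr4 per length, Fgfr2 made up 88.1% ± 0.613 in knockout and 78.6% ± 5.44 in control cells with FGF, and 83.4% ± 10.1 in knockout and 82.7% ± 1.26 in control cells without FGF (SD, n = 3 each). The Fgfr1 share was 1.06% ± 0.359 and 8.48% ± 1.96 with FGF, and 2.3% ± 1.7 and 7.87% ± 0.772 without FGF, knockout before control. Without replicate 2, knockout cells without FGF had mean shares of 89.2% for Fgfr2 and 1.31% for Fgfr1, and control cells with FGF had 81.8% and 7.36% (n = 2 each). Even in the knockout library with the lowest Fgfr2 value the Fgfr2 share was 71.8%, with Fgfr3 at 24% and Fgfr1 at 4.26%. The summed receptor level was 10.3 ± 0.315 CPM per kilobase in knockout and 11.9 ± 2.95 in control cells with FGF, and 9.31 ± 4.88 and 15.7 ± 0.867 without FGF; without replicate 2 its mean was 12.1 in knockout cells without FGF and 13.6 in control cells with FGF. These are transcript levels per gene: the counts do not separate the IIIb and IIIc forms, nor do they measure receptor protein at the surface.

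Fgfr1 transcripts were lower in knockout cells in both conditions, and it was the receptor with the largest difference. Fgfr1 (mm10, chromosome 8, 25513654 to 25575718, plus strand) had 1.08, 1.43 and 0.74 CPM in knockout replicates 1 to 3 with FGF, against 10.5, 8.99 and 9.34 CPM in control with FGF. Without FGF it had 1.51, 1.56 and 1.63 CPM in knockout, against 13.8, 12.7 and 10.3 CPM in control. The knockout and control libraries did not overlap, and the counts behind the knockout values were 65 over 3 libraries with FGF and 91 without. The log2 fold change was -3.15 (SE 0.20, edgeR adjusted p = 7.24e-08) with FGF and -2.96 (SE 0.18, edgeR adjusted p = 7.05e-08) without, a level 0.112 and 0.129 times that of control. In bulk RNA, fewer cells that express a gene and less RNA per cell cannot be told apart. The 50 tested genes nearest to Fgfr1 on chromosome 8 had a median log2 fold change of -0.17 with FGF and -0.21 without; their part in the Fgfr1 difference was not tested. An antisense gene, Gm16159, shares 164 exon bases with Fgfr1, and the strand setting of the counting is not given in the sources used here.

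FGF addition gave lower mean Fgfr1 values in both genotypes, and neither passed the test. The log2 difference with FGF was -0.54 (SE 0.25, edgeR adjusted p = 0.244) in knockout and -0.35 (SE 0.15, edgeR adjusted p = 0.777) in control cells; knockout libraries with and without FGF did not overlap, whereas 1 control library without FGF, at 10.3 CPM, lay within the range of those with FGF. By the root-mean-square difference of log2 CPM over the 12 libraries, each gene centred on its mean, the tested genes closest to Fgfr1 were the acyl-CoA synthetase family gene Acsf2 (0.21), the MHC class I gene H2-Q6 (0.243) and the vitamin D 24-hydroxylase Cyp24a1 (0.265). Acsf2 averaged 1.97 CPM in knockout and 15.1 CPM in control cells with FGF, and 2.32 and 16.2 CPM without. H2-Q6 belongs to a multigene family whose members share reads, so its value is uncertain.

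Fgfr2, the receptor with the highest level, showed no called difference in the model of group means over all 12 libraries, and in each of 2 groups 1 library lay far below the others. Fgfr2 (chromosome 7, 130162451 to 130266808 in RefSeq, minus strand; the GENCODE model runs on to 133123350 through transcripts that share 314 exon bases with Ctbp2) had 96.8, 90.6 and 94.5 CPM in knockout with FGF, against 116, 63.5 and 114 CPM in control with FGF. Without FGF it had 107, 27.5 and 117 CPM in knockout, against 140, 132 and 129 CPM in control. Both low values are replicate 2, the libraries that stand apart. With FGF all knockout libraries lay above control replicate 2 and below control replicates 1 and 3, and without FGF all knockout libraries lay below the control libraries. The log2 fold change of knockout over control was -0.06 (SE 0.37, 95% interval -0.91 to 0.79, edgeR adjusted p = 0.92) with FGF and -0.68 (SE 0.37, interval -1.53 to 0.18, edgeR adjusted p = 0.153) without. Over the 10 other libraries it was -0.28 (SE 0.06, edgeR adjusted p = 4.47e-05) with FGF and -0.26 (SE 0.05, edgeR adjusted p = 0.000144) without, so that Fgfr2 passed as lower in knockout cells in both conditions, at 0.822 and 0.836 times the control level. This fit, chosen after seeing the data, called 58.5% and 58.6% of the genes it tested in these comparisons.

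With FGF added, Fgfr2 over all 12 libraries was at log2 0.17 (SE 0.37, edgeR adjusted p = 0.814) in knockout and -0.45 (SE 0.37, edgeR adjusted p = 1) in control cells. Over the 10 libraries it was lower with FGF in both genotypes, by log2 -0.25 (SE 0.06, edgeR adjusted p = 0.00206) in knockout cells, where the sign is turned, and by -0.23 (SE 0.05, edgeR adjusted p = 0.0123) in control cells. The difference between these responses was log2 -0.02 (interval -0.21 to 0.16) in the 10 libraries and 0.62 (interval -0.58 to 1.82) in all 12, and did not pass in either. The 10-library fit called 11.7% of genes for FGF in knockout and 2.92% in control cells.

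The genes with the profile most similar to Fgfr2, chosen over the same 12 libraries and so low in the same places by that choice, were Mbnl3, a muscleblind-like splicing regulator (root-mean-square difference 0.137), Zc3h12c, a CCCH zinc finger gene (0.166), and Rev3l, the catalytic subunit of DNA polymerase zeta (0.17). In knockout replicate 2 without FGF, Mbnl3 had 14.7 CPM against 53.6 and 55.2 CPM in replicates 1 and 3, Zc3h12c 7.07 against 25.1 and 24.3, and Rev3l 8.57 against 29.3 and 30.8. Exons of Fgfr2, Mbnl3, Zc3h12c and Rev3l add up to 10328, 8743, 6845 and 13293 bases, all above 6768.5 bases, the upper quartile of the tested genes. The longest Fgfr2 transcript has 4429 bases. GC content was 50.2% for Fgfr2 and 39.8%, 41.4% and 42.3% for the others. Fgfr1, with 9875 exon bases, had 1.56 CPM in knockout replicate 2 without FGF, against 1.51 and 1.63 CPM in replicates 1 and 3. The cause of the low Fgfr2 values was not tested. In that library Fgfr2 deviated by log2 -2.02 from the mean of replicates 1 and 3, and 0.339% of tested genes deviated further down. When fitted trends on gene length and base composition were removed from every library, also chosen after seeing the data, Fgfr2 was still not called in any comparison (knockout over control without FGF log2 -0.51, edgeR adjusted p = 0.176).

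**Figure D2:**
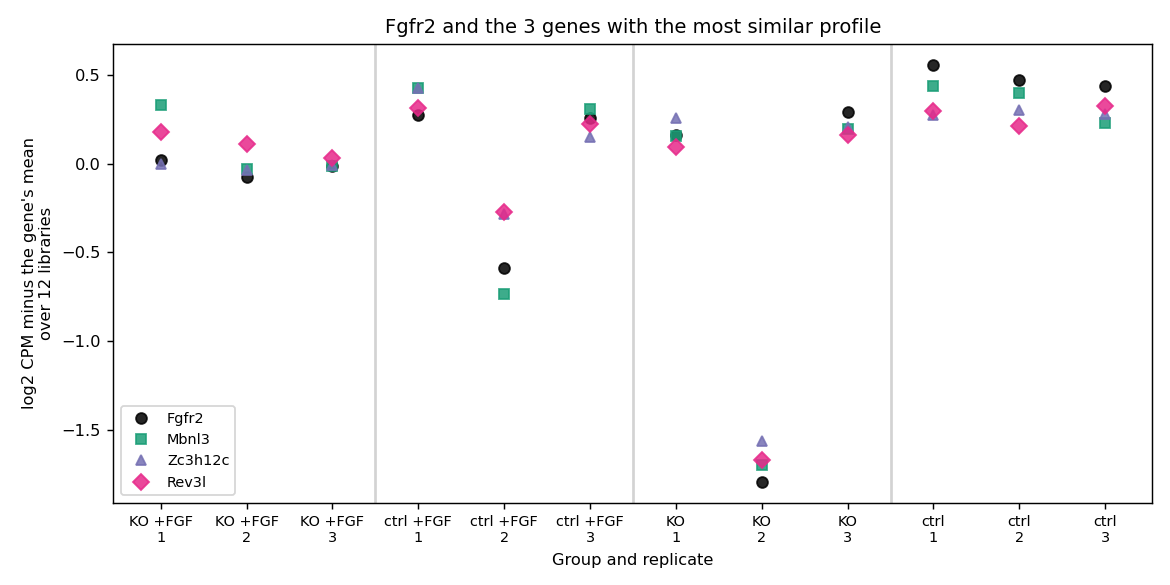
log2 CPM of Fgfr2, Mbnl3, Zc3h12c and Rev3l minus each gene's mean over 12 libraries, by group and replicate. All 4 genes drop in replicate 2 of the knockout without FGF (Fgfr2 at -1.79) and, less, in replicate 2 of the control with FGF (Fgfr2 at -0.59).

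Fgfr3 was lower in knockout cells by a smaller amount. Fgfr3 (chromosome 5, 33721674 to 33737068, plus strand) had 8.42, 7.83 and 7.79 CPM in knockout and 10.9, 10.1 and 10.4 CPM in control with FGF, and 8.13, 6.35 and 8.17 CPM in knockout and 11.6, 10.8 and 9.41 CPM in control without FGF. The libraries did not overlap in either condition. The log2 fold change was -0.38 (SE 0.12, edgeR adjusted p = 0.0226) with FGF and -0.48 (SE 0.12, edgeR adjusted p = 0.00619) without. The call with FGF was lost without control with FGF replicate 1, 2 or 3 (edgeR adjusted p = 0.075, 0.0504 and 0.0531) and without knockout with FGF replicate 2 or 3 (0.0677 and 0.0707). A neighbouring transcript on the other strand, G630022F23Rik, shares 998 exon bases with Fgfr3.

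Fgfr4, known mainly for control of bile acid synthesis in liver, was not detectable at this depth. It had 1 count in knockout with FGF, 2 in control with FGF, 1 in knockout without FGF and 0 in control, over 3 libraries each. In a library with no count, a limit of 3 counts allows up to 0.125 to 0.18 CPM, counting error only. Fgfrl1, which binds FGFs but has no kinase domain, was higher in knockout cells. Fgfrl1 (chromosome 5, 108692382 to 108706924, plus strand) had 53.5, 55 and 51.9 CPM in knockout and 35.9, 38.3 and 38.4 CPM in control with FGF, and 54.9, 67.7 and 56.2 CPM in knockout and 38.8, 36.9 and 37.6 CPM in control without FGF. No knockout library overlapped a control library, and the log2 fold change was 0.51 (SE 0.09, edgeR adjusted p = 0.000378) with FGF and 0.66 (SE 0.09, edgeR adjusted p = 4.96e-05) without. Per kilobase of merged exon, Fgfrl1 at 19.2 ± 0.55 CPM in knockout with FGF was above Fgfr2, at 9.1 ± 0.302 CPM, and in control cells without FGF, at 13.6 ± 0.353 CPM, its range overlapped that of Fgfr2 (SD, n = 3 each). This comparison depends on the length used. Merged exons are 10328 bases for Fgfr2 and 2782 for Fgfrl1, and the longest transcripts are 4429 and 2329 bases. The other length was not run for this pair.

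The carrier Fgfbp1 rose in knockout cells, the largest rise among the members. Fgfbp1 (chromosome 5, 43978858 to 43981779, minus strand) had 121, 124 and 118 CPM in knockout and 16.9, 17.3 and 15.8 CPM in control with FGF, and 99.3, 114 and 96.3 CPM in knockout and 17.3, 14.8 and 17.1 CPM in control without FGF. The groups lay far apart in both conditions. The level was 7.27 times that of control with FGF (log2 2.86, SE 0.09, edgeR adjusted p = 2.34e-10) and 6.3 times without (log2 2.65, SE 0.09, edgeR adjusted p = 4.84e-10). Its 50 tested neighbours on chromosome 5 had medians of log2 0.21 and 0.16. Within knockout cells all libraries with FGF were above those without (log2 0.23, SE 0.08, edgeR adjusted p = 0.162), and over the 10 libraries this difference passed (log2 0.31, SE 0.05, edgeR adjusted p = 0.000148). In control cells the libraries with and without FGF overlapped (log2 0.02, SE 0.09, edgeR adjusted p = 1). Among the most similar profiles were those of the syntabulin gene Sybu (root-mean-square difference 0.232) and the transposase-derived gene Pgbd5 (0.245). Pgbd5 averaged 6.67 CPM in knockout and 0.667 CPM in control cells with FGF, and 6.09 and 0.734 CPM without.

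**Figure D3:**
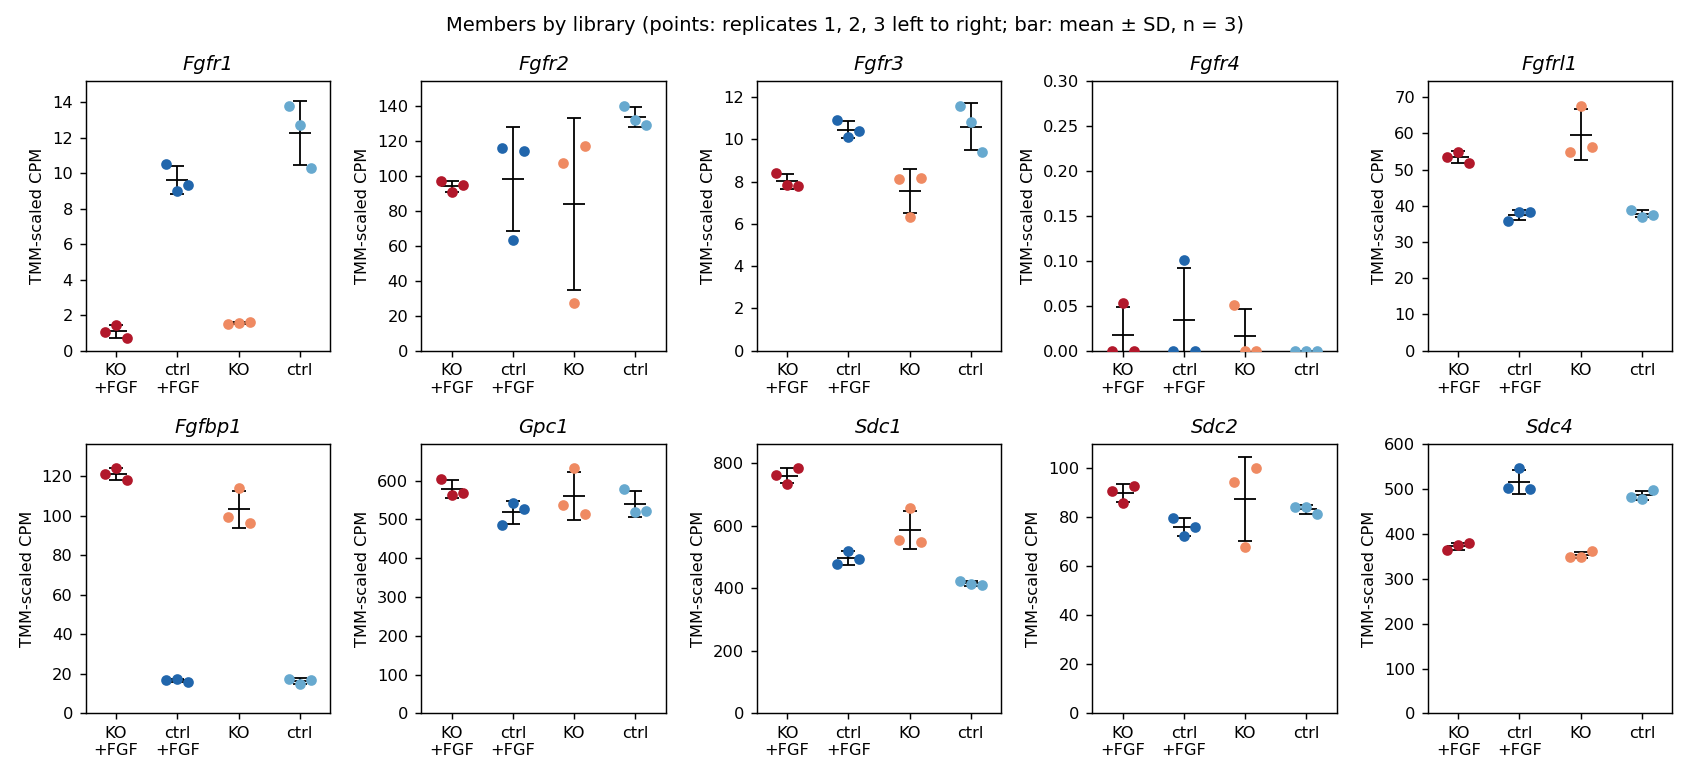
TMM-scaled CPM of the 10 members in each library; points are replicates 1 to 3 from left to right, the bar is the mean ± SD (n = 3). Fgfr1 and Fgfbp1 separate knockout from control, Sdc1 is highest in knockout with FGF, and the low replicate 2 values of Fgfr2 stand out.

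The syndecans moved in different directions. Sdc1, the main epithelial syndecan, rose in knockout cells: it had 761, 734 and 783 CPM in knockout and 478, 520 and 492 CPM in control with FGF, and 554, 655 and 546 CPM in knockout and 424, 414 and 409 CPM in control without FGF. None of these pairs of groups overlapped, with a log2 fold change of 0.61 (SE 0.07, edgeR adjusted p = 3.04e-05) with FGF and 0.49 (SE 0.07, edgeR adjusted p = 0.00017) without. Sdc4, a syndecan of focal adhesions, fell: it had 364, 375 and 380 CPM in knockout and 503, 547 and 500 CPM in control with FGF, and 350, 350 and 362 CPM in knockout and 483, 479 and 498 CPM in control without FGF. Its log2 fold change was -0.47 (SE 0.06, edgeR adjusted p = 4.08e-05) with FGF and -0.46 (SE 0.06, edgeR adjusted p = 4.8e-05) without. The order of the most abundant proteoglycan differed: per kilobase, Sdc1 was above Sdc4 in knockout cells, at 199 ± 6.45 and 146 ± 3.25 CPM with FGF and 154 ± 16 and 139 ± 2.79 CPM without, and Sdc4 was above Sdc1 in control cells, at 203 ± 10.4 and 130 ± 5.52 CPM with FGF and 191 ± 3.89 and 109 ± 1.99 CPM without (SD, n = 3 each). In no group did the ranges of Sdc1 and Sdc4 overlap. Sdc1 lies on chromosome 12 (8771323 to 8793715, plus strand) and Sdc4 on chromosome 2 (164424247 to 164443887, minus strand).

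Sdc1 was the member with a called response to FGF. In knockout cells it rose by log2 0.38 with FGF (SE 0.07, edgeR adjusted p = 0.0183), and all 3 libraries with FGF were above all 3 without. In control cells the libraries were also separated, with a log2 difference of 0.26 that did not pass (SE 0.07, edgeR adjusted p = 0.291). The difference between these responses was 0.12 (SE 0.11, edgeR adjusted p = 0.608). The call in knockout cells was lost without knockout replicate 1 (edgeR adjusted p = 0.0504) or without knockout with FGF replicate 1, 2 or 3 (0.0758, 0.0558 and 0.0994), and in a fit of the compared libraries alone (0.158). Over the 10 libraries Sdc1 passed in both genotypes, at log2 0.47 (SE 0.04, edgeR adjusted p = 3.73e-10) in knockout and 0.22 (SE 0.04, edgeR adjusted p = 0.000676) in control cells, and the difference between the responses, 0.25 (SE 0.06), passed as well (edgeR adjusted p = 0.018).

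Gpc1 and Sdc2 showed no called difference over 12 libraries. Gpc1, a glypican held in the membrane by a lipid anchor, had 605, 563 and 567 CPM in knockout and 486, 542 and 527 CPM in control with FGF, and 536, 632 and 515 CPM in knockout and 578, 519 and 523 CPM in control without FGF. Its log2 fold change was 0.16 (interval -0.03 to 0.35, edgeR adjusted p = 0.149) with FGF and 0.05 (interval -0.14 to 0.25, edgeR adjusted p = 0.618) without. Sdc2, a syndecan more typical of mesenchymal cells, had 90.5, 85.6 and 92.6 CPM in knockout and 79.5, 72 and 76 CPM in control with FGF, and 94, 67.7 and 99.7 CPM in knockout and 83.9, 83.9 and 81 CPM in control without FGF. With FGF the knockout libraries were above the control libraries for both genes, and without FGF the groups overlapped. Sdc2 was at log2 0.24 (interval -0.02 to 0.50, edgeR adjusted p = 0.112) with FGF and 0.07 (interval -0.19 to 0.34, edgeR adjusted p = 0.63) without. The lowest Sdc2 value is again replicate 2 of the knockout: over the 10 libraries Sdc2 passed as higher in knockout cells, by 0.21 with FGF and 0.23 without (edgeR adjusted p = 0.00114 and 0.000444), and Gpc1 passed with FGF (0.20, edgeR adjusted p = 0.000653). Exons of Gpc1 (chromosome 1, 92831645 to 92860779) share 977 bases with Ankmy1 on the other strand. Sdc2 lies on chromosome 15 (32920723 to 33034935).

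**Figure D4:**
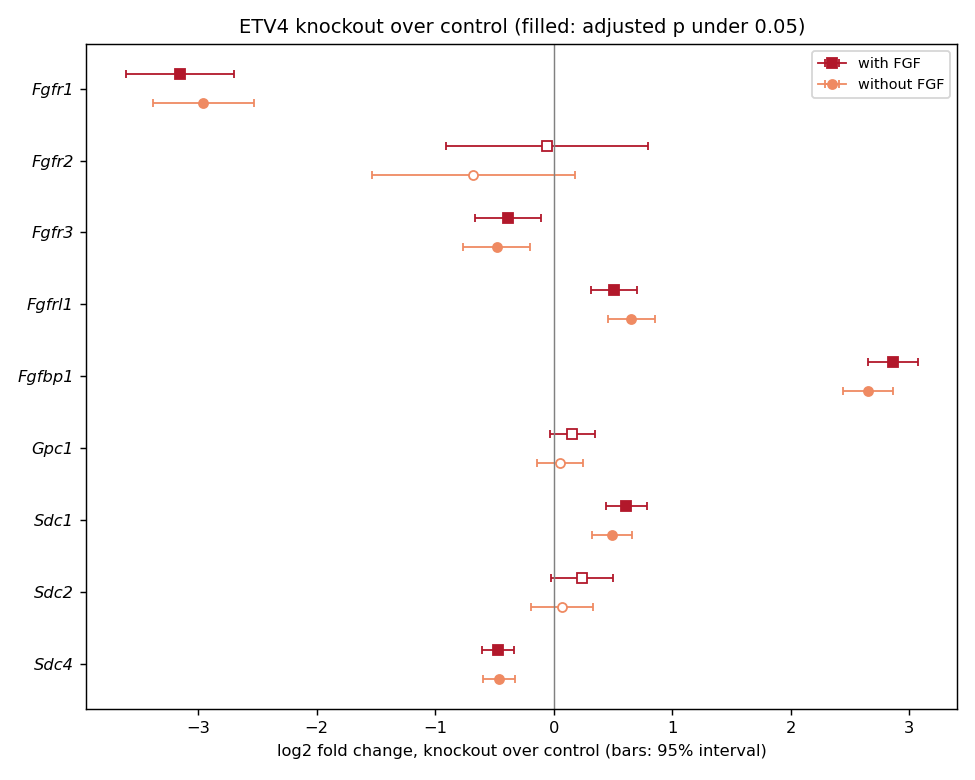
log2 fold change of knockout over control for the 9 tested members, with FGF (squares) and without (circles); bars are 95% intervals and filled symbols have an edgeR adjusted p under 0.05. Fgfr1 lies near -3 and Fgfbp1 near 2.7 in both conditions, while the wide Fgfr2 intervals span 0.

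In all, 3 of the 9 tested members rose (Fgfrl1, Fgfbp1, Sdc1) and 3 fell (Fgfr1, Fgfr3, Sdc4) in knockout cells in both conditions. Of all 12079 tested genes, 40.3% were called with FGF (18% higher, 22.2% lower) and 45.8% without (22.5% higher, 23.3% lower). Knockout and control libraries did not overlap for 8 of 9 members with FGF and 7 of 9 without, against 61.4% and 53.6% of all genes. The members' median log2 fold change was 0.16 with FGF and 0.06 without, against -0.01 for all genes in both conditions. For FGF in knockout cells 1 of 9 members was called, against 2.42% of all genes (1.47% higher, 0.944% lower). Libraries with and without FGF did not overlap for 4 of 9 members in knockout and 4 of 9 in control cells, against 23.9% and 18.3% of all genes. For FGF in control cells edgeR called 0 of 9 members, with 2 at an unadjusted p under 0.05, 1 called by DESeq2 and 0 by limma-voom; of all genes edgeR called 0.488% (0.257% higher, 0.232% lower). The interaction of genotype and FGF had 0 members called by edgeR, DESeq2 or limma-voom and 0 at an unadjusted p under 0.05, and 0.0166% of all genes. Knockout and FGF comparisons share libraries, so their values are set side by side only.

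**Figure D5:**
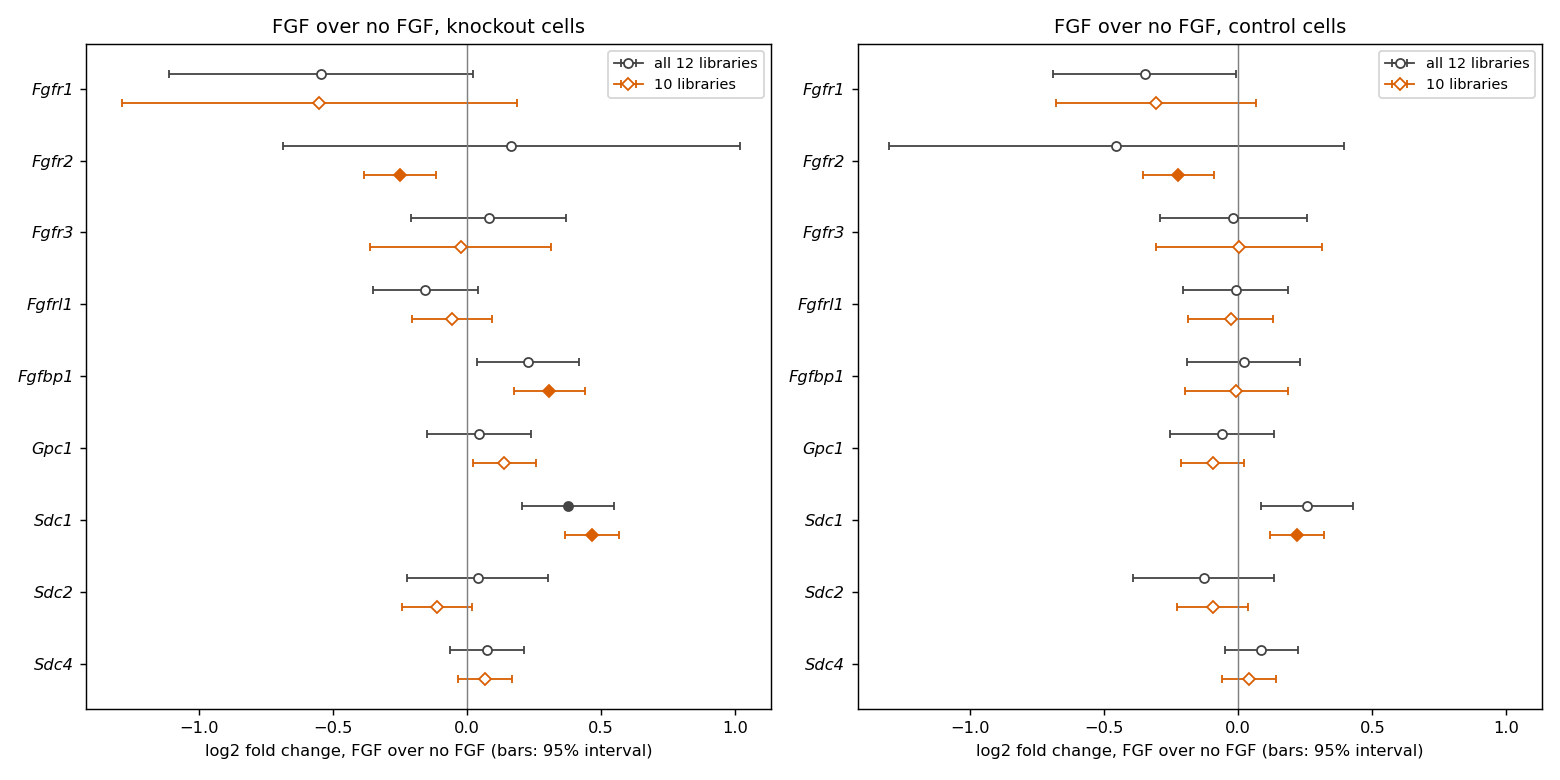
log2 fold change with FGF over without FGF for the 9 tested members in knockout (left) and control cells (right); circles use all 12 libraries, diamonds the 10 left after knockout replicate 2 and control with FGF replicate 2 are removed, bars are 95% intervals, and filled symbols pass. With 12 libraries Sdc1 in knockout cells is the filled point; with 10, Fgfr2 is lower and Sdc1 higher in both genotypes, and Fgfbp1 is higher in knockout cells.

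Transcripts of FGF ligands were scarce in all groups. Of 22 ligand genes 9 had no count and 16 had under 10 counts over all libraries; Fgf10 had none, and Fgf2 averaged 0.193 CPM. The added proteins leave no transcript, so these counts do not measure them. The most abundant was Fgf11, an intracellular member that is not secreted to receptors, at a mean of 6.6 CPM. It rose in knockout cells without FGF (log2 0.54, SE 0.16, edgeR adjusted p = 0.0133), a call lost without control replicate 1 or knockout replicate 3 (edgeR adjusted p = 0.0582 and 0.0571) and in the compared libraries alone (0.0614). Fgf1, a ligand of all FGF receptors, fell to 6 counts in knockout against 74 in control cells with FGF (log2 -3.46, SE 0.63, edgeR adjusted p = 0.000696), and to 9 against 75 without (log2 -2.90, SE 0.58, edgeR adjusted p = 0.00126). Of 5 ligand genes tested, 0 rose and 1 fell with FGF, and 1 rose and 1 fell without. These and the lists that follow were put together with earlier results known and are read by their counts only, beside the shares of all genes given above.

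Other co-receptors and carriers also differed in both directions. Of 10 tested genes of that list, 5 rose and 2 fell in knockout cells with FGF, and 5 rose and 3 fell without; the median log2 fold change was 0.37 and 0.22. The glypican Gpc4 had 0 counts in knockout and 401 in control cells with FGF, at least 125-fold lower (floor of 3 counts over a group), and 1 count in knockout and 349 in control cells without FGF, where the control level was 323 times that of knockout (counting interval 57.6 to 12800). Flrt3, a transmembrane protein that binds FGF receptors, rose by 1.35 on the log2 scale with FGF (SE 0.11, edgeR adjusted p = 5.94e-07) and 1.01 without (SE 0.11, edgeR adjusted p = 8.21e-06). L1cam, an adhesion molecule reported to engage FGF receptors, rose by 1.42 (SE 0.14) and 1.16 (SE 0.15; edgeR adjusted p = 5.19e-06 and 3.78e-05). With FGF added to knockout cells, Flrt3 rose by 0.49 (SE 0.10, edgeR adjusted p = 0.0282) and the hyaluronan receptor Cd44 by 0.65 (SE 0.13, edgeR adjusted p = 0.0237); in control cells 0 of the list passed with edgeR, DESeq2 or limma-voom, with 3 at an unadjusted p under 0.05. Both calls were lost without knockout with FGF replicate 1, 2 or 3 (edgeR adjusted p = 0.109, 0.0843 and 0.115 for Flrt3, and 0.0959, 0.0843 and 0.0872 for Cd44); the Flrt3 call was also lost without any control replicate (0.051, 0.05 and 0.0503) and without control with FGF replicate 2 or 3 (0.0557 and 0.0511). In the compared libraries alone neither passed (0.324 for Flrt3 and 0.301 for Cd44).

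The enzymes that build and edit heparan sulfate showed the same mixture. Of 23 tested, 5 rose and 6 fell in knockout cells with FGF, and 5 rose and 7 fell without, with medians of log2 0.05 and -0.02. Sulf2, a secreted sulfatase that removes sulfate groups from the chains, rose to 19.4 ± 0.961 CPM in knockout against 8.59 ± 0.314 CPM in control cells with FGF (a log2 fold change of 1.18 with SE 0.10 and edgeR adjusted p = 9.5e-07), and to 21.5 ± 1.49 against 9.41 ± 0.716 CPM without (SD, n = 3 each; log2 1.19 with SE 0.10, edgeR adjusted p = 8.58e-07). Heparanase, Hpse, had 2 counts in knockout and 107 in control cells with FGF, so that control was 50.1 times knockout, and counting error alone allows 13.5 to 419 times. Without FGF the difference was smaller, with 19 Hpse counts in knockout and 83 in control cells, a control level 4.04 times that of knockout. The chain polymerase subunit Ext2 rose by 0.74 without FGF (SE 0.08, edgeR adjusted p = 8.33e-06), and the xylose phosphatase Pxylp1 fell by 0.61 on the log2 scale (SE 0.09, edgeR adjusted p = 0.000165). Hs3st1, a 3-O-sulfotransferase, rose by 0.91 with FGF (SE 0.11, edgeR adjusted p = 3.06e-05). In knockout cells given FGF, Hs3st1 rose by 0.68 (SE 0.11, edgeR adjusted p = 0.00505) and the linkage enzyme B4galt7 by 0.49 (SE 0.09, edgeR adjusted p = 0.0103), 2 of 23 genes, with 0 lower. The B4galt7 call was lost without knockout with FGF replicate 1 or 2 (edgeR adjusted p = 0.0593 and 0.0552), and both calls were lost in a fit of the compared libraries alone (0.0998 for B4galt7 and 0.139 for Hs3st1). Without knockout replicate 2 the counts were 2 higher and 2 lower, where 7.76% of all genes were called.

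The regulators of Fgfr2 exon choice bear on which form the cells can make. Esrp1 and Esrp2, splicing factors known to promote the epithelial IIIb exon, were present in all groups. Esrp1 averaged 103 ± 1.14 CPM in knockout and 116 ± 7.45 CPM in control cells with FGF, and 92.7 ± 16.1 and 125 ± 2.78 CPM without, where it fell (log2 -0.43, SE 0.11, edgeR adjusted p = 0.00476). Esrp2 averaged 37.4 ± 0.31 CPM in knockout and 29.3 ± 0.934 CPM in control cells with FGF, where it rose (log2 0.35, SE 0.08, edgeR adjusted p = 0.00288), and 30.8 ± 1.37 and 27.5 ± 2.13 CPM without (SD, n = 3 each). Tial1, a further RNA-binding regulator, rose by 0.28 with FGF and 0.32 without (edgeR adjusted p = 0.00542 and 0.00197), and its relative Tia1 fell by 0.70 on the log2 scale without FGF (edgeR adjusted p = 0.00547). Of 14 such genes 2 rose and 0 fell with FGF, and 2 rose and 3 fell without; without knockout replicate 2 the counts were 4 and 4 with FGF and 5 and 4 without, where 58.6% and 54.5% of all genes were called, and without knockout replicate 3 they were 2 and 5 without FGF (45.8% of all genes).

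Downstream of the receptors, 27 genes of adaptors and proximal signalling were tested; 3 rose and 5 fell in knockout cells with FGF, and 6 rose and 11 fell without. Without knockout replicate 2 the first pair of counts was 7 and 10, where 58.6% of all genes were called. Gab1, a docking protein, fell by 1.17 on the log2 scale with FGF (SE 0.16, edgeR adjusted p = 8.94e-05) and by 1.16 without (SE 0.16, edgeR adjusted p = 0.000102). Plcg1, the phospholipase that docks on activated FGF receptors, fell by 0.50 with FGF (edgeR adjusted p = 4.97e-05) and 0.64 without (edgeR adjusted p = 6.14e-06), and the ubiquitin ligase Cblb fell by 0.99 without (edgeR adjusted p = 7.26e-05). With FGF added to knockout cells 1 of the 27 passed, Cblb at log2 0.59 (SE 0.14, edgeR adjusted p = 0.0394), a call lost when any library other than knockout replicates 1 and 2 was left out (edgeR adjusted p = 0.0524 to 0.143) and in the compared libraries alone (0.326).

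Among 24 other tested receptor tyrosine kinases 9 rose and 4 fell with FGF, and 8 rose and 6 fell without. Without control with FGF replicate 1 or knockout with FGF replicate 1 or 2 the number that fell with FGF was 2. In those fits 32.7%, 32.5% and 33.3% of all genes were called, in the same order. Ror1 rose by log2 1.78 and 1.31 (SE 0.20 each; edgeR adjusted p = 1.42e-05 and 0.000175), Ddr1, a collagen receptor, by 0.60 with FGF (edgeR adjusted p = 2.18e-05), and Ephb2 by 0.63 without (edgeR adjusted p = 6.32e-05), while Erbb3 fell by 0.67 on the log2 scale without FGF (edgeR adjusted p = 0.000282) and Flt1 by 0.37 with FGF (edgeR adjusted p = 0.000762).

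Genes known to respond to FGF and ERK signalling differed between knockout and control cells: of 20 tested, 8 rose and 6 fell with FGF, and 10 rose and 5 fell without. The 20 include Etv4, the targeted gene, which is counted among those that fell in both conditions. Etv5, a PEA3 relative of the targeted factor, fell by 1.06 on the log2 scale with FGF (SE 0.07, edgeR adjusted p = 1.98e-07) and by 0.90 without (SE 0.07, edgeR adjusted p = 8.99e-07). Spry1, a feedback inhibitor of receptor tyrosine kinase signalling, fell by 1.26 with FGF (edgeR adjusted p = 9.32e-08), and Spred3, of a related inhibitor family, rose by 1.00 (edgeR adjusted p = 7.75e-07). Without FGF the ERK phosphatase Dusp5 rose by 1.39 (edgeR adjusted p = 3.24e-08) and the immediate early gene Egr1 by 1.14 (edgeR adjusted p = 1.06e-06).

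With FGF set against without FGF, of the 20 genes, 1 rose and 1 fell in knockout cells, Spred3 at log2 0.54 (SE 0.08, edgeR adjusted p = 0.00305) and Spry1 at -0.63 (SE 0.08, edgeR adjusted p = 0.0012). Both calls were lost in the compared libraries alone (edgeR adjusted p = 0.0692 and 0.0777). In control cells 1 rose and 1 fell, Phlda1 at 0.36 (SE 0.07, edgeR adjusted p = 0.0444) and Fos at -1.12 (SE 0.10, edgeR adjusted p = 5.95e-05). The Phlda1 call was lost when any library other than the 3 of the knockout without FGF was left out (edgeR adjusted p = 0.0588 to 0.255), and without knockout replicate 2 alone 9 of the 20 rose in control cells, where 2.8% of all genes were called. Over the 10 libraries 3 rose and 3 fell in knockout cells, and 10 rose and 1 fell in control cells, and the test of the difference between the genotypes called 2 of the 20 higher and 4 lower. That fit called 11.7%, 2.92% and 1.72% of all genes for FGF in knockout cells, FGF in control cells and the difference. With all 12 libraries that test called 0 of 20 with edgeR and limma-voom and 3 with DESeq2, with 9 at an unadjusted p under 0.05.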

How the data were processed

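RNA was sequenced from 12 libraries of 4T1 cells in 4 groups of 3. The values the authors deposited are counts of reads for each gene symbol without normalization (whole numbers). The tools named are STAR 2.7.9a, featureCounts, R 4.1.1 and FastQC 0.11.9, and the builds mm10 and hg38, per the submitters' processing notes; which annotation was counted, and with what strand and multi-mapping options, is not stated there. Libraries were made with a stranded mRNA kit, per the labels' protocols. Groups and replicate numbers follow the sample titles.

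Counts were tested in R 4.3.3 by the quasi-likelihood F-test of edgeR 4.0.16 on genes kept by filterByExpr (groups as input), TMM-scaled, in a model of 4 group means fitted to all 12 libraries. Tests were two-sided, with Benjamini-Hochberg adjustment over 12079 genes and a threshold of 0.05. SE is the log2 fold change divided by the square root of F, and 95% intervals use the t distribution with 8 residual degrees of freedom. The fit was tested on simulated data in which no library stood apart, so that test says nothing about the 2 libraries that do. Levels per length divide CPM by merged exon length of GENCODE vM21 (mm10) models. Gene pattern likeness used log2 CPM with a prior count of 2. Counts per library limit precision at low levels: floors (3 counts) and counting intervals cover counting error only.

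The members and lists were chosen with earlier results of these data known. All members are named, and from each list up to 3 called genes per comparison with the smallest adjusted p; a few genes that this rule or a list would name are not reported here. Alternatives were DESeq2 1.42.0, limma-voom (limma 3.58.1), upper-quartile or RLE scaling, other filters, a replicate block, the compared libraries alone, leaving out each library, another length, and, chosen after seeing the data, leaving out 2 libraries together and a length and GC correction.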

Additional observations from a re-analysis of the deposited data

How the results depend on the processing

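Of 981 values of members under the alternatives, 945 stayed on the same side of the threshold, and of 1034 values of listed genes 991 did. A change of sign where neither value passed was not counted as a change. Fgfr1, Fgfrl1, Fgfbp1, Sdc1 and Sdc4 kept their calls of knockout over control under every alternative run, in both conditions, and Fgfr3 did so without FGF. The 1 change of sign with a passing value was Fgfr2 for FGF in knockout cells, at log2 -0.249 without both libraries that stand apart. Its cause was not tested. Values that did not pass changed sign as well. Fgfr2 in this comparison ran from -0.249 to 0.481 with each library left out in turn. Members called for FGF in control cells numbered 1 with DESeq2, with the compared libraries alone and with the length and GC correction, and 2 without both libraries; for FGF in knockout cells 0 with the compared libraries alone, 3 without both libraries and 2 with the correction; for the interaction 1 without both libraries. All genes called for FGF in control cells numbered 143 with DESeq2, 228 with the compared libraries alone, 356 without both libraries and 111 with the correction, against 59; for FGF in knockout cells 735, 23, 1428 and 762 in the same order, against 292; for the interaction 67 with DESeq2, 4 with limma-voom, 8 with no filter, 210 without both libraries and 18 with the correction, against 2. When each library was left out in turn, these counts ran from 25 to 343, from 120 to 950 and from 0 to 120, and members called from 0 to 2 for FGF in control, 0 to 2 for FGF in knockout, 6 to 7 for knockout without FGF and 5 to 8 with FGF. The highest counts of all genes came without knockout replicate 2, where Sdc1 and Fgfr2 passed for FGF in control cells (edgeR adjusted p = 0.000686 and 0.0499) and Fgfbp1 in knockout cells (0.00222). Calls of listed genes for FGF in knockout cells were lost for Flrt3, Cd44, Cblb and B4galt7 without 1 or more libraries, and for these and Hs3st1, Spry1 and Spred3 with the compared libraries alone; Phlda1 lost its call in control cells without 1 or more libraries and with upper-quartile scaling. With the longest transcript as length, Fgfr2 over Fgfr1 was 12.5 in control cells, and Fgfr2 over Fgfr3 was 12.1 in control, 8.96 in control with FGF and 11.2 in knockout with FGF, against 10.5, 8.77, 6.48 and 8.13. Same-numbered libraries had correlated deviations over 0.1 in 2 of 18 pairs (range -0.087 to 0.343), and 7 of 12 libraries correlated best with their own number, so the numbers were not taken as pairs. With the replicate block 5705 and 4944 genes were called for knockout without and with FGF, and Fgfr2 passed as lower without FGF (log2 -0.826, edgeR adjusted p = 0.0451). With each library left out in turn, the log2 change with FGF in knockout cells ran from 0.46 to 0.774 for Cd44. It ran from 0.349 to 0.585 for Flrt3 and from 0.423 to 0.731 for Cblb. Knockout over control without FGF ran from log2 -0.528 to -0.297 for Esrp1 and from -0.829 to -0.476 for Tia1. Depth limits Fgfr4, Fgf1 and Hpse, which rest on few counts.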
